A study of Mus musculus with 2 samples.

Results

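The S100 genes encode small calcium-binding proteins of the EF-hand family, and 10 of them were followed here across the cell classes of developing mouse molars: S100a1, S100a4, S100a6, S100a8, S100a9, S100a10, S100a11, S100a13, S100a16 and S100b. They were taken by symbol from the 34285 genes of the count tables. The files hold 18 genes named S100 other than S100pbp, and the other 8 are given below as a group. The study asked how loss of macrophages early after birth alters tooth root development. C57BL/6J mice, with no further allele given, received either clodronate liposomes (Lipo-Clo, 40 μg clodronate per g body weight) or vehicle liposomes (Lipo-PBS) intraperitoneally from PN3.5 (PN, postnatal day), with further injections at PN6.5 and PN9.5 and a last at PN12.5. Clodronate liposomes are taken up by phagocytes and kill them. At PN15.5 the lower first molars with the tissue around them were digested with Dispase and Collagenase I and sequenced as single cells. Each condition is 1 library, both are labelled batch 1, and the number of mice behind a library is not given in the sources used here.

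S100 proteins form dimers and bind target proteins when calcium binds to them. S100a8 and S100a9 together make calprotectin, the main soluble protein of the neutrophil cytosol, which sequesters zinc and manganese and, once released, can signal through the receptors Tlr4 and Ager (the receptor for advanced glycation end products). S100a10 and S100a11 bind annexins at membranes, S100a4 binds non-muscle myosin and is known from motile fibroblasts and leukocytes, S100a6 (calcyclin) is a gene of fibroblasts and epithelia, S100a1 is best known from striated muscle, S100a13 takes part in the release of growth factors that lack a signal peptide, and S100b is a marker of glia. In the RefSeq annotation (GRCm38.p6) all members but S100b lie on chromosome 3, in the order S100a1, S100a13, S100a16, S100a4, S100a6, S100a8, S100a9, S100a11 and S100a10, with other S100 genes between some of them, and S100b lies on chromosome 10.

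The libraries held 9362 barcodes and 31053404 UMIs (unique molecular identifiers, each counting 1 captured RNA molecule) in Lipo-Clo and 9653 barcodes and 30537834 UMIs in Lipo-PBS. After filters on genes, mitochondrial UMIs and likely doublets, 8254 and 8261 cells were kept, with medians of 2567 and 2678 UMIs per cell. The libraries shared 30 barcodes as deposited and 23 among the kept cells. Mitochondrial genes took 0.370% and 1.73% of UMIs and haemoglobin genes 5.45% and 7.91%. The cells were clustered without the S100 genes and each cluster was named after marker lists as, for example, neutrophil-like; the word neutrophil below stands for neutrophil-like cells, and likewise for the other classes. Macrophages, the targeted cells, were 116 of the Lipo-Clo cells (1.41%) and 168 of the Lipo-PBS cells (2.03%). Neutrophils were 6.82% and 2.64% of cells (563 and 218), and dental mesenchyme was 49.6% and 44.1% (4098 and 3644). A further 331 and 995 cells stayed unnamed because their clusters mixed markers of several lineages, 830 of the Lipo-PBS cells and 4 of the Lipo-Clo cells being in a single such cluster.

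Levels are given as CPM, a gene's UMIs per 1000000 UMIs of all cells of a class and library, with exact 95% Poisson intervals in brackets where printed. The comparison is the log2 ratio of the CPM in Lipo-Clo over that in Lipo-PBS, with an exact 95% interval for 2 counts. With 1 library per condition there was no replicate to test against, so no p-value is given, and all intervals cover counting error only. A gene counted as past the limit when its ratio exceeded 1.5-fold in either direction, among genes detected in 10% or more of the class in either library. The share of all such genes past that limit is given beside each count as the background of that class. The members together took 2.84% of all UMIs in Lipo-Clo and 0.964% in Lipo-PBS. Among all 12 named classes, S100a6, S100a8, S100a9, S100a10, S100a11 and S100a13 passed the 10% filter in 12, S100a1 and S100a4 in 9, S100a16 in 7 and S100b in 1. Orders of classes below are among these 12, which include no class of monocytes, osteoclasts, granulocyte progenitors or T or NK cells.

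The members separated by class, with S100a8 and S100a9 the pair tied to 1 class above all others, so the stretch around the start of those genes is shown. Each window runs from 250 bases before to 50 after the annotated start (RefSeq, GRCm38.p6), and capitals mark letters of a TATA box (TATAAA), of the PU.1 motif (GAGGAA, read on either strand, here as TTCCTC) and of the C/EBP motif (TTGCNNAA). PU.1 and C/EBP proteins are transcription factors of the myeloid lineage.
S100a8, chr3:90668821-90669120, plus strand: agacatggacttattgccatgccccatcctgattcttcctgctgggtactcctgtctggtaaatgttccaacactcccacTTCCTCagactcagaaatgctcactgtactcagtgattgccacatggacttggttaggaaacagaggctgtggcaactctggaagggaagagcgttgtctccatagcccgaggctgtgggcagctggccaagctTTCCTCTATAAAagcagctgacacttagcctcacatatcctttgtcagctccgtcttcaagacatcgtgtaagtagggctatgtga
S100a9, chr3:90695672-90695971, minus strand: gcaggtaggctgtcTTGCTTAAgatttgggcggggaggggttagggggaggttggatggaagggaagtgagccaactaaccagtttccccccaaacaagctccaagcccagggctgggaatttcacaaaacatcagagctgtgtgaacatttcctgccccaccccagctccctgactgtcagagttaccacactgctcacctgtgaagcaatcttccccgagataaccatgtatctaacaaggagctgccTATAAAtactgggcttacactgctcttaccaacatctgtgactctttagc
The S100a8 window holds TATAAA 30 bases before the start and the PU.1 letters 170 and 36 bases before it, the second run adjoining the TATA letters. The S100a9 window holds TATAAA at the annotated start itself and a C/EBP match 236 bases before it. Over 32851 promoters of the same length, 13.6% hold TATAAA on either strand, 28.3% the PU.1 letters and 10.8% the C/EBP letters. Of the other members with an entry, S100a4 has TATAAA 31 bases before its start and PU.1 letters 19 bases after it, and S100a11 has the AP-1 letters TGANTCA (7.81% of promoters) 136 and 38 bases before its start and PU.1 letters 153 bases before. One of the 2 windows of S100a16 holds the PU.1 letters 180 bases before the start and the other the AP-1 letters 192 bases before. The SOX letters ACAAAG (18.7% of promoters) are, among these windows, in that of S100a8 alone, 3 bases after the start and not in capitals. The windows of S100a1, S100a13, S100a6 and S100b hold none of these motifs. Those of S100a1 and S100a13, which are read in opposite directions, share 204 bases. In all, 9 of the 10 members had an entry, and S100a10 is named only.

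**Figure D1:**
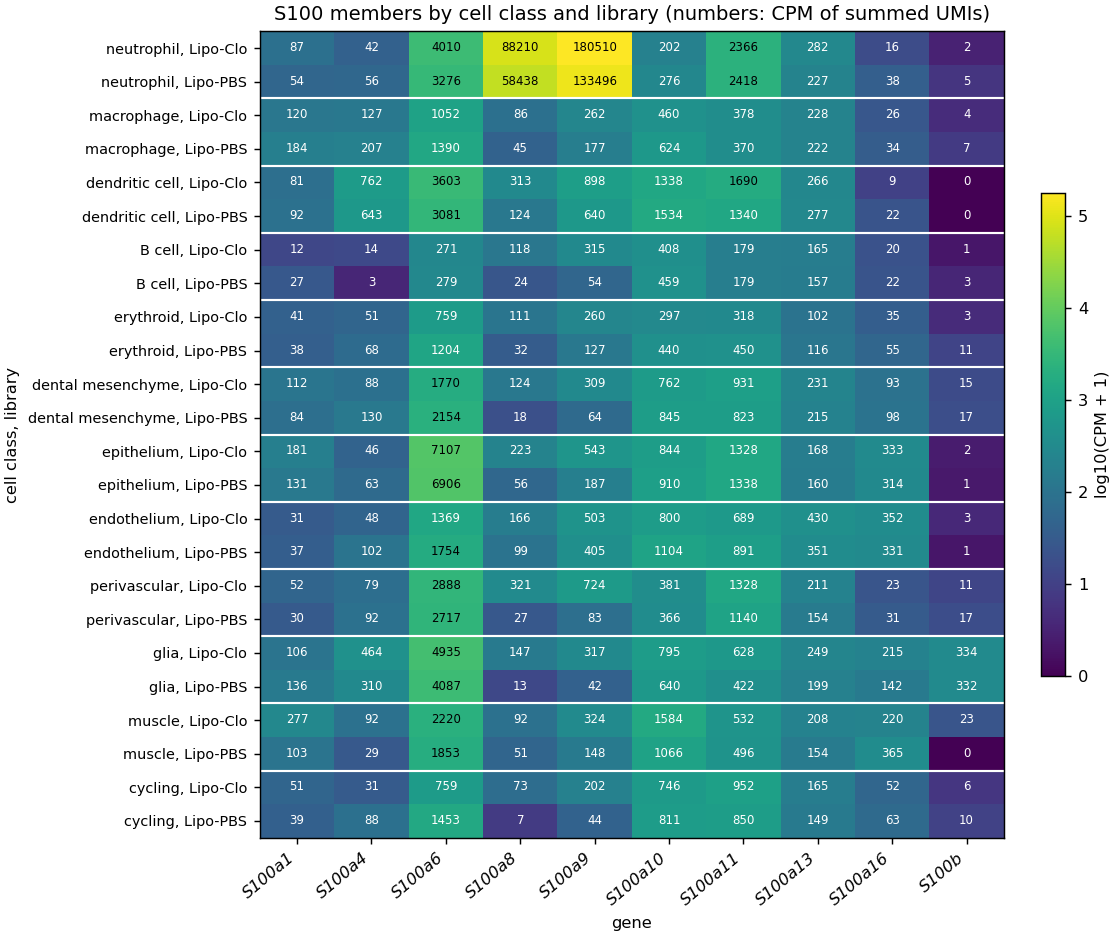
CPM of each member (columns) in each cell class and library (rows), coloured by log10(CPM + 1) and printed as rounded CPM. The neutrophil rows hold 88210 and 58438 CPM of S100a8, while epithelium holds 7107 and 6906 CPM of S100a6, the highest class for that gene in both libraries.

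S100a8 was held by neutrophils. Of its UMIs, 93.9% in Lipo-Clo and 88.2% in Lipo-PBS lay in that class, and 4.56% and 10.03% in the unnamed cells. The class takes in a subcluster named granulocyte progenitor (37 and 3 cells). With leukocytes clustered by themselves, a step described below, neutrophils held 176347 and 30456 UMIs of S100a8 and granulocyte progenitors 23600 and 2266. Over all cells S100a8 stood at 7878 CPM in the Lipo-Clo library against 1423 in the Lipo-PBS library (log2 ratio 2.47 [2.45, 2.48]), and S100a9 at 15781 against 3339 CPM (2.24 [2.23, 2.25]). These were the 2 members past the limit over all cells, of 9 that passed the filter, where 10.3% of 4369 genes were past it. In such sums a larger share of neutrophils and more RNA of the gene per neutrophil cannot be told apart, and the share of neutrophils was itself higher in Lipo-Clo.

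Within neutrophils the difference was smaller. S100a8 stood at 88210 CPM in Lipo-Clo and 58438 in Lipo-PBS (log2 ratio 0.59 [0.58, 0.61]) and S100a9 at 180510 and 133496 CPM (0.44 [0.42, 0.45]). The pair took 26.9% of all neutrophil UMIs in Lipo-Clo and 19.2% in Lipo-PBS. Per cell, the median neutrophil of Lipo-Clo held 224 UMIs of S100a8 and that of Lipo-PBS 73.5, with 557 and 253.5 of S100a9, at medians of 2766 and 2009 UMIs of all genes per cell. Nearly every neutrophil carried the gene, with a UMI of S100a8 in 99.8% and 100% of them and 10 or more in 98.2% and 94.0%. The 11 neutrophil marker genes, a list without S100 genes, summed to 89309 and 80769 CPM. Genes of other lineages were also in these cells, the erythroid list at 17935 CPM in Lipo-Clo and 71375 in Lipo-PBS and the dental mesenchyme list at 10481 and 18772 CPM, and their part in the ratios was not tested. Of the 8 members that passed in neutrophils, S100a8 and S100a1 were past the limit, against a background of 37.2% of genes in that class; S100a8 was only just past it, and S100a9 was within it, but at 0.60 and 0.61 and so past it with edgeR TMM and DESeq2 scaling.

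The neutrophil ratio depended on which neutrophils were counted. In 8 of 8 subclusters of the neutrophil class both S100a8 and S100a9 were higher in Lipo-Clo, with intervals clear of 0. Only 3 of them were named neutrophil. Another was named granulocyte progenitor (37 and 3 cells). The rest stayed unnamed, led by genes of mesenchyme, of erythroid cells (13 and 18 cells) or of ameloblasts (14 and 5 cells). In the subcluster led by Ly6a2 (177 and 62 cells) S100a8 was at 117401 and 96775 CPM, and in that led by Stfa3 (99 and 27 cells) at 116620 and 101565 CPM, log2 ratios of 0.28 and 0.20. The subcluster led by Il1b and Nlrp3 (128 and 38 cells), genes of inflammatory cytokine production, had less S100a8 and the wider gap, 72256 against 33989 CPM (1.09 [1.00, 1.17]). A subcluster that mixed neutrophil genes with Ibsp and Thbs4 of mesenchyme (86 and 36 cells) stood at 57077 and 31096 CPM (0.88). Over the 3 subclusters named neutrophil alone, S100a8 was at 105420 and 88227 CPM and S100a9 at 225578 and 205378, log2 ratios of 0.26 and 0.14, which are within the limit. With both libraries set to the same mixture of subclusters, the S100a8 ratio was 0.46 and the S100a9 ratio 0.30.

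**Figure D2:**
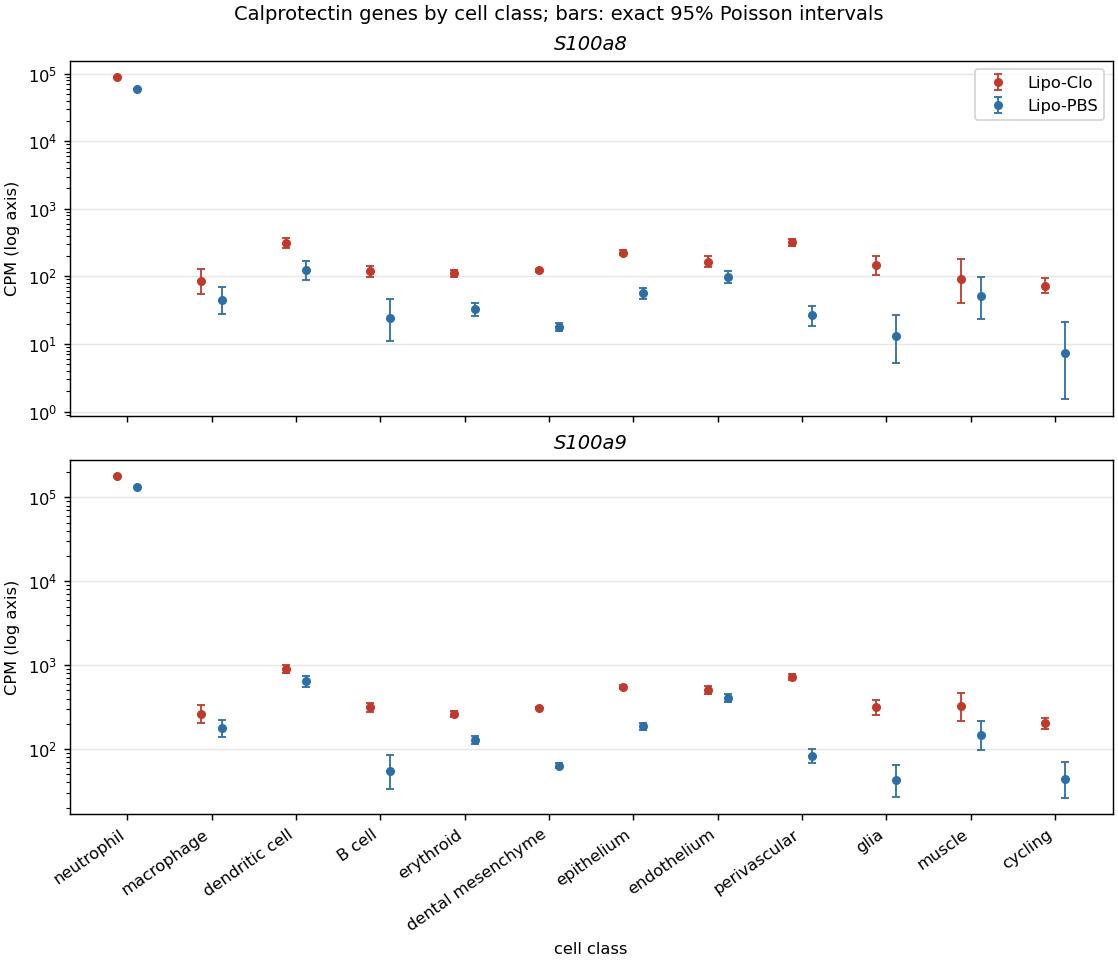
CPM of S100a8 and S100a9 (log axes) in each cell class, by library, with exact 95% Poisson intervals as bars. Neutrophils sit at 88210 and 58438 CPM for S100a8, far above every other class in both libraries, and the Lipo-Clo point lies above the Lipo-PBS point in all 12 classes.

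Outside neutrophils the pair was scarce and yet higher in Lipo-Clo in every other class of the 12 named. S100a8 was past the limit in 12 of 12 classes, with an interval clear of 0 in 11 of them, and S100a9 in 8 of 12. In some of these classes a single cell held much of the S100a8, as given below. In dental mesenchyme S100a8 was at 124 CPM in Lipo-Clo and 17.8 in Lipo-PBS (log2 ratio 2.80 [2.59, 3.02]) and S100a9 at 309 and 63.6 CPM (2.28 [2.17, 2.40]). These were the 2 members past the limit there, of 9 that passed the filter, against 7.09% of genes. A UMI of S100a8 was seen in 22.4% and 3.95% of mesenchymal cells, and 10 or more UMIs in 15 of 4098 and 2 of 3644 cells. After each cell was thinned to 1000 UMIs, which left 3719 and 3392 of these cells, the shares were 8.26% and 1.24%.

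B cells, which do not make calprotectin, give the level of S100a8 found in cells that should lack it. They held a UMI of S100a8 in 16.6% of Lipo-Clo cells and 3.81% of Lipo-PBS cells, at medians of only 885 and 948 UMIs per cell, and stood at 118 and 24.4 CPM (2.28 [1.30, 3.45]). Thinned to 1000 UMIs, which left 206 and 107 B cells, the shares were 7.77% and 0.935%, close to those of thinned mesenchyme. The Lipo-PBS B cells held 9 UMIs of S100a8 in all before thinning, so their thinned share rests on very few cells. No expression of S100a8 by mesenchyme is read from levels this close to those of B cells. The reference level itself moved with the clustering, since B cells of the leukocytes clustered again by themselves (447 and 208 cells, a step described below) stood at 547 and 27.7 CPM of S100a8 (426 and 8 UMIs, 4.31 [3.31, 5.53]). The share of B cells with a UMI hardly moved, at 17.2% and 3.85%, so the change lay in the UMIs per cell that held the gene. Erythroid cells (111 and 32.4 CPM), glia (147 and 12.9), cycling cells (73.1 and 7.32), macrophages (86.1 and 44.9) and muscle (92.5 and 51.3, from 8 and 9 UMIs) lay in a like range. Higher levels were seen in perivascular cells (321 and 26.6 CPM), dendritic cells (313 and 124), epithelium (223 and 56.3) and endothelium (166 and 99.2). Single cells weighed on these levels and on their ratios. In Lipo-Clo, 1 cell held 171 of the 253 UMIs of perivascular cells, 96 of 135 in dendritic cells and 149 of 574 in epithelium. In Lipo-PBS, 1 cell held 26 of 39 UMIs in dendritic cells, 67 of 127 in epithelium and 50 of 91 in endothelium. The counting intervals do not cover such cells. The 11 neutrophil markers were likewise higher in Lipo-Clo in mesenchyme (248 and 67.3 CPM), B cells (288 and 43.4), perivascular cells (377 and 47.8), glia (201 and 51.6) and epithelium (215 and 123), but not in endothelium (309 and 349) or muscle (231 and 416).

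The proportion of the pair varied between classes. In neutrophils there were 0.489 UMIs of S100a8 per UMI of S100a9 in Lipo-Clo and 0.438 in Lipo-PBS. The same ratio was 0.401 and 0.280 in mesenchyme, 0.411 and 0.301 in epithelium and 0.444 and 0.321 in perivascular cells, each below that of the neutrophils of the same library. The perivascular intervals, [0.381, 0.516] and [0.213, 0.474], spanned the neutrophil values, and so did those of glia, [0.314, 0.671] and [0.110, 0.733]. Not every class was lower, since B cells in Lipo-PBS were at 0.45 [0.180, 1.03] and unnamed cells in Lipo-Clo at 1.05 [1.02, 1.08]. Set against the neutrophil markers, S100a8 gave 0.988 and 0.724 UMIs per marker UMI in neutrophils, 0.499 and 0.264 in mesenchyme, 0.412 and 0.563 in B cells and 1.04 and 0.458 in epithelium. Whether free RNA from lysed neutrophils accounts for the low levels was not tested.

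The background of each class bears on the remaining counts of calls. In B cells S100a8 and S100a9 were the members past the limit among the 6 that passed (30.9% of genes). In epithelium they were the only ones among 9 (15.8%), and in perivascular cells among 7 (11.1%). S100a8 alone was past it among 7 in endothelium (13.5%) and among 8 in dendritic cells (38.4%). The counts in macrophages (30.5%), erythroid cells (43.6%), glia (26.4%), muscle (42.9%) and cycling cells (33.4%) include other members and follow below.

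Leukocytes clustered again by themselves, a step added after the data had been seen, resolved classes in which the pair is known to be made at lower levels. Monocytes (133 and 39 cells) carried S100a8 at 9425 CPM in Lipo-Clo and 1882 in Lipo-PBS (2.32 [2.10, 2.55]) and S100a9 at 9239 and 515 CPM (4.16 [3.75, 4.62]). A UMI of S100a8 was seen in 72.2% and 15.4% of them, and of S100a9 in 70.7% and 12.8%. The name was a close one. Their monocyte markers averaged 6.43 log2 units above the median cluster, and the granulocyte progenitor markers 6.24. Granulocyte progenitors, which express the primary granule genes Elane, Ctsg and Mpo, carried S100a8 at 37212 and 28474 CPM and S100a9 at 54204 and 44986 CPM, in 52 and 9 cells. For S100a8 both populations stood between neutrophils and the other leukocytes in both libraries. For S100a9 monocytes did so in Lipo-Clo, whereas in Lipo-PBS they lay below dendritic cells (2486 CPM). That Lipo-PBS order rests on few positive cells, with 46 UMIs of S100a9 among 39 monocytes and 481 among 73 dendritic cells. By CPM, dendritic cells of this clustering did not have more S100a9 in Lipo-Clo (2471 and 2486 CPM, −0.01 [−0.18, 0.16]). Their S100a8, at 1036 and 775 CPM (0.42 [0.13, 0.71]), was within the limit. Detection in dendritic cells was nonetheless wider after clodronate. A UMI of S100a9 was found in 41.1% of the 95 Lipo-Clo against 16.4% of the 73 Lipo-PBS ones, and of S100a8 in 27.4% against 6.85%. B cells in this clustering had S100a9 at 1297 and 62.2 CPM (4.38 [3.71, 5.14]). T or NK cells (75 and 87) had 16 UMIs of S100a8 in Lipo-Clo and 0 in Lipo-PBS. Macrophages in this clustering had 19 UMIs of S100a8 in each library (86.8 and 50.02 CPM, 0.80 [−0.20, 1.79]).

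**Figure D3:**
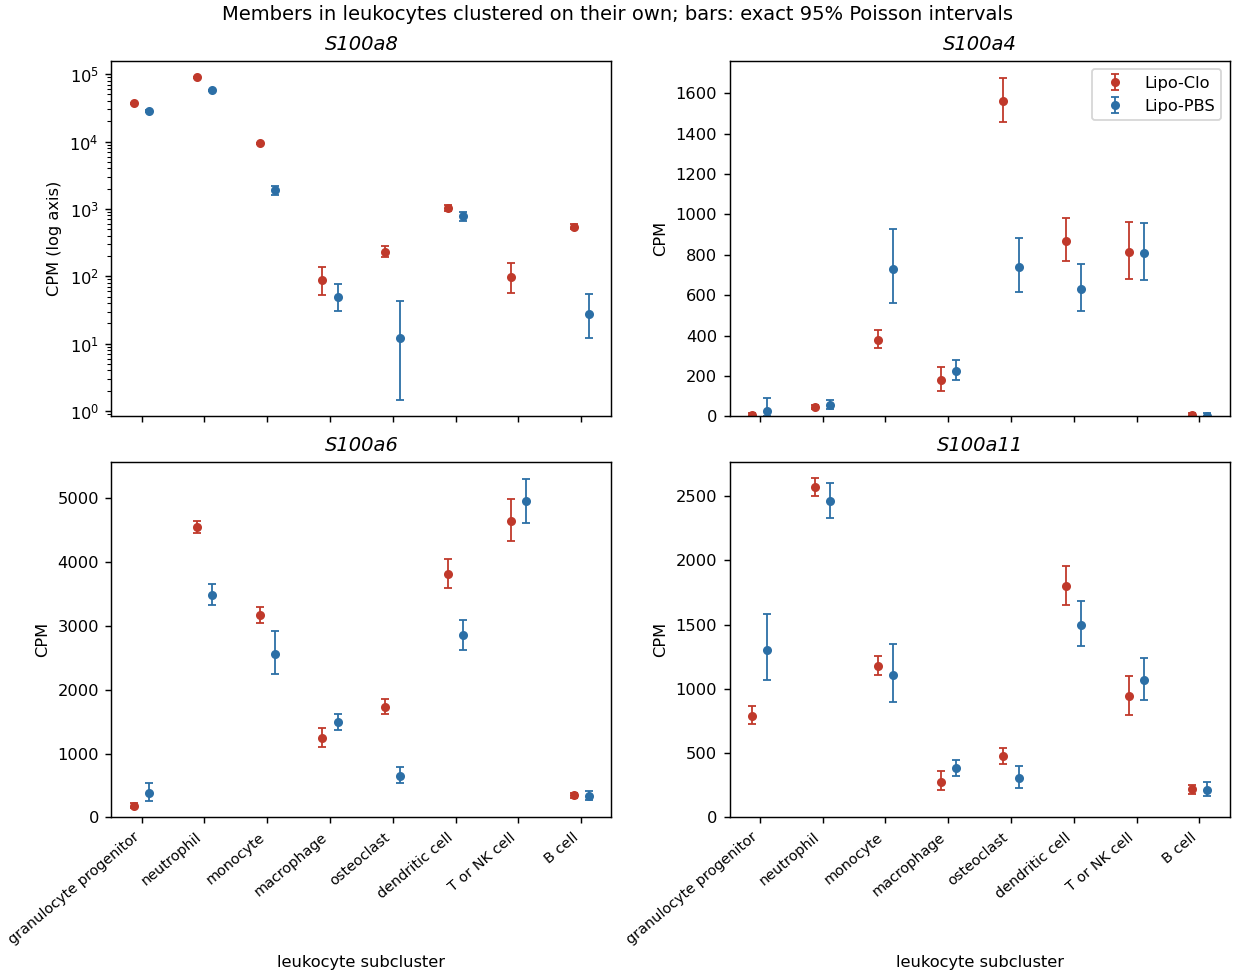
CPM of members in leukocytes clustered by themselves, by library, with exact 95% Poisson intervals (S100a8 on a log axis, the others on linear axes from 0). Monocytes lie at 9425 and 1882 CPM of S100a8, between granulocyte progenitors and the other leukocytes, and S100a4 is higher in Lipo-Clo osteoclasts (1563 against 740 CPM) and lower in Lipo-Clo monocytes (380 against 728 CPM).

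S100a4, known as a fibroblast and leukocyte gene, was highest in dendritic cells, at 762 CPM [682, 849] in Lipo-Clo and 643 [557, 738] in Lipo-PBS. Glia came next at 464 and 310 CPM, then macrophages at 127 and 207 CPM, and the first 2 steps of that order were wider than the counting intervals in both libraries. Between libraries, S100a4 was below 0 on the log2 scale in 7 of the 9 classes where it passed the filter, with an interval clear of 0 in 5. It was past the limit in macrophages (−0.70 [−1.31, −0.12], 34 and 92 UMIs) and in cycling cells (31.3 and 87.9 CPM, −1.49 [−2.26, −0.73], 27 and 36 UMIs). In dental mesenchyme it stood at 88.0 and 130 CPM (−0.56 [−0.67, −0.45]), just within the limit. Glia went the other way, at 0.58 [0.25, 0.92], also within it. The dental mesenchyme list summed to 74722 and 81895 CPM in cycling cells, and its part in their ratios was not tested.

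Among leukocytes clustered by themselves, S100a4 went in opposite directions in different cells. Osteoclasts, the bone-resorbing relatives of macrophages (77 and 25 cells), carried S100a4 at 1563 and 740 CPM (1.08 [0.80, 1.36]), and also S100a6 at 1732 and 650 CPM (1.41 [1.13, 1.71]) and S100a10 at 1637 and 763 CPM (1.10 [0.83, 1.38]). S100a8 (4.28, from 119 and 2 UMIs) and S100a9 (4.18, from 443 and 8 UMIs) were higher there too. Their Lipo-Clo levels in osteoclasts, 232 and 864 CPM, lay below those of B cells in this clustering (547 and 1297 CPM). No expression of the pair by osteoclasts is read from them. S100a11 (0.64) was also higher, as were S100a1 (0.64) and S100a13 (0.67) with intervals that span 0. S100a16 and S100b had 1 UMI each in Lipo-Clo and 0 in Lipo-PBS. The share of all genes past the limit was not computed for osteoclasts, so whether the whole class differed was not tested. Monocytes carried S100a4 at 380 and 728 CPM (−0.94 [−1.33, −0.53]). In T or NK cells its level differed by less than the counting error, at 814 and 808 CPM (0.01 [−0.35, 0.37]), and so did S100a6 at 4652 and 4956 CPM (−0.09 [−0.24, 0.05]). Macrophages so defined stood at 178 and 226 CPM of S100a4 (−0.35 [−0.93, 0.22]), an interval that spans 0. Dendritic cells in this clustering had S100a4 at 869 and 631 CPM. They thus lay below osteoclasts in both libraries, and below T or NK cells and monocytes in Lipo-PBS. In Lipo-PBS their interval [524, 753] overlapped those of osteoclasts [615, 882], T or NK cells [675, 958] and monocytes [562, 928], so counting error does not separate them.

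S100a6 was highest in epithelium in both libraries. Epithelium carried 7107 CPM [7005, 7211] in Lipo-Clo and 6906 [6798, 7015] in Lipo-PBS (0.04 [0.01, 0.07]), with a UMI in 98.3% and 96.4% of cells. Glia followed at 4935 and 4087 CPM and neutrophils at 4010 and 3276 CPM, each step being wider than the intervals. B cells were lowest in both libraries at 271 and 279 CPM. Between libraries it was above 0 in 6 classes and below 0 in 6, with the interval clear of 0 in 5 of each. The higher classes included neutrophils (0.29 [0.22, 0.37]), glia (0.27 [0.18, 0.37]) and dendritic cells (0.23 [0.11, 0.34]). The lower ones were dental mesenchyme (1770 and 2154 CPM, −0.28 [−0.31, −0.26]), endothelium (−0.36), macrophages (−0.40), erythroid cells (759 and 1204 CPM, −0.66 [−0.75, −0.58]) and cycling cells (759 and 1453 CPM, −0.94 [−1.10, −0.77]), the last 2 of which were past the limit.

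The S100a6 difference in mesenchyme changed sign when subclusters were compared with themselves. S100a6 was higher in Lipo-Clo in 7 of 9 mesenchymal subclusters, with intervals clear of 0 in 5, and lower with a clear interval in 1, the subcluster led by Dspp, a dentin matrix gene (680 and 874 CPM, −0.36). The subclusters richest in S100a6 were fibroblasts led by Clec3b and Mfap5, at 5536 and 5056 CPM (0.13 [0.09, 0.17]), and a periodontal ligament subcluster led by Abi3bp and Mgp, at 4656 and 4251 CPM (0.13 [0.03, 0.23]). These subclusters held 596 and 91 cells in Lipo-Clo against 963 and 277 in Lipo-PBS. The dental follicle, led by Dio2 and Moxd1, stood at 2341 and 1874 CPM (0.32 [0.26, 0.38]), and both pulp or papilla subclusters were low, at 472 and 458 CPM and at 490 and 471 CPM. With the same mixture of subclusters in both libraries S100a6 was at 2286 and 2059 CPM, a log2 ratio of 0.15.

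S100a4 kept its direction in that comparison but lost most of its size, with a log2 ratio of −0.21 at the same mixture (105 and 121 CPM). It was below 0 in 7 of 9 subclusters, with a clear interval in 2. One was the Abi3bp-led periodontal ligament (216 and 429 CPM, −0.99 [−1.46, −0.54]) and the other the pulp or papilla led by Lrrc4c (9.03 and 32.1 CPM, −1.83 [−2.87, −0.85], 14 and 28 UMIs). The dental follicle was above 0 with a clear interval (146 and 119 CPM, 0.29 [0.04, 0.55]). S100a4 and S100a6 thus shared their richest subclusters, fibroblasts and the Abi3bp-led periodontal ligament, and were both low in pulp.

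**Figure D4:**
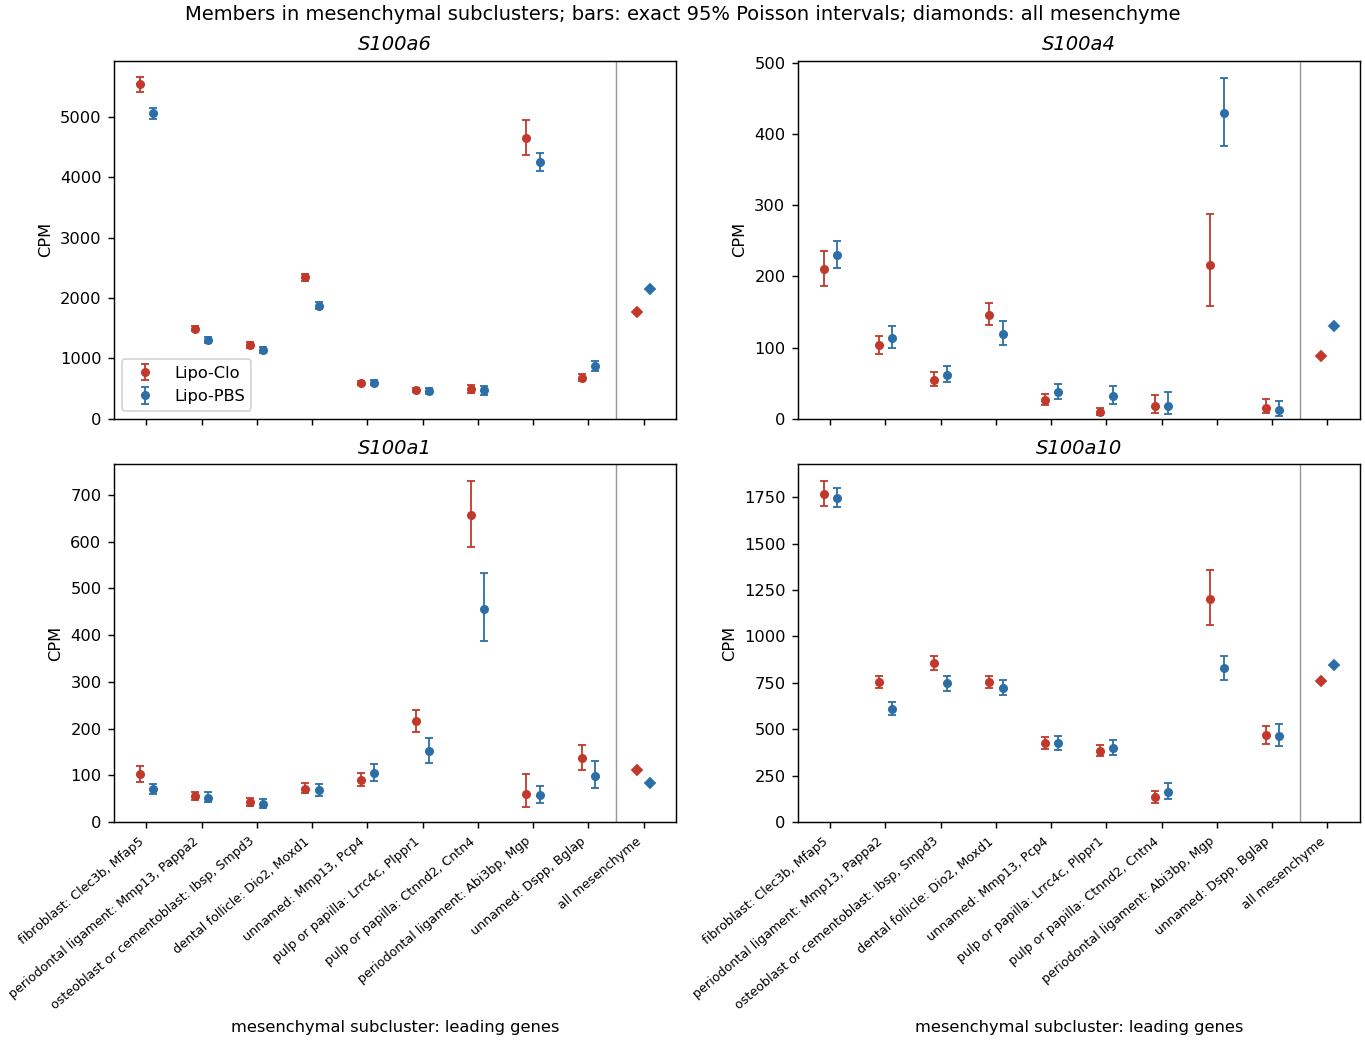
CPM of members in the mesenchymal subclusters (named by leading genes on the horizontal axes) and in all mesenchyme (diamonds, right of the line), by library, with exact 95% Poisson intervals. S100a6 is higher in Lipo-Clo in 7 of 9 subclusters although the diamonds lie at 1770 and 2154 CPM.

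S100a10 and S100a11, the annexin partners, had broad profiles and small differences. S100a11 was highest in neutrophils, at 2366 CPM in Lipo-Clo and 2418 in Lipo-PBS (−0.03 [−0.12, 0.06]), and then in dendritic cells at 1690 and 1340 CPM (0.33 [0.16, 0.51]). In the whole neutrophil class it was the member that differed least (0.13 and 0.15 with edgeR TMM and DESeq2 scaling). In the subclusters named neutrophil alone S100a11 was lower in Lipo-Clo (3121 and 3662 CPM, −0.23), and S100a9 differed less (0.14). At the same mixture of neutrophil subclusters S100a11 was at −0.22. Its levels in epithelium (1328 and 1338 CPM) and B cells (179 and 179 CPM) differed by less than the counting error. It was past the limit in none of the 12 classes. Glia gave its highest ratio (628 and 422 CPM, 0.57 [0.28, 0.86]) and erythroid cells its lowest (318 and 450 CPM, −0.50 [−0.63, −0.37]), which ran from −0.98 to 0.60 over the alternative settings. Inside mesenchyme it was above 0 in 9 of 9 subclusters, with clear intervals in 5, and stood at 943 and 673 CPM in the periodontal ligament led by Mmp13 and Pappa2 (0.48 [0.39, 0.58]). The Il1b-led neutrophils were rich in S100a6 (8623 and 7259 CPM) and in S100a11 (4759 and 5323 CPM), where S100a8 was lower than in the other neutrophil subclusters of the same name.

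S100a10, the partner of Anxa2 at the cell surface, was highest among the 12 named classes in dendritic cells in Lipo-PBS, at 1534 CPM [1400, 1678]. In Lipo-Clo muscle (1584 CPM [1330, 1872]) and dendritic cells (1338 [1232, 1452]) overlapped at the top of that order. T or NK cells of the leukocytes clustered by themselves stood at 1700.5 CPM in Lipo-Clo and 1738 in Lipo-PBS. It was below 0 in 9 of 12 classes, with an interval clear of 0 in 7, and past the limit in none. Endothelium (800 and 1104 CPM, −0.46 [−0.62, −0.31]), neutrophils (202 and 276 CPM, −0.45 [−0.72, −0.18]) and erythroid cells (297 and 440 CPM, −0.57 [−0.70, −0.43]) were among the lower ones, and glia (795 and 640 CPM, 0.31 [0.07, 0.56]) among the higher. In erythroid cells S100a10 ran from −0.99 to 0.96 over the alternative settings. In dental mesenchyme its ratio of −0.15 became 0.11 at the same mixture of subclusters. Neutrophils named as such had few UMIs of it (151 and 97.9 CPM, 0.62), so that the direction in this class too depended on the mixed subclusters.

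The binding partners of the S100 proteins, a fixed list of 15 genes, showed 1 steady member. Ahnak, a large scaffold protein that joins S100a10 and Anxa2 at the membrane, was past the limit over all cells (245 and 421 CPM, −0.78 [−0.83, −0.74]) and in dental mesenchyme (301 and 496 CPM, −0.72 [−0.78, −0.66]), and lay below 0 in every class where it passed the filter. It was the only partner of 8 passing that was past the limit in mesenchyme (background 7.09%), where the median of the 8 was −0.19 against −0.05 for all genes. Anxa2 itself differed little in mesenchyme (641 and 610 CPM, 0.07), was higher in glia (1173 and 902 CPM, 0.38) and lower in epithelium (679 and 795 CPM, −0.23). Anxa1, a partner of S100a11, was at 2795 and 1948 CPM in neutrophils (0.52 [0.43, 0.62]) but lower in dental mesenchyme (475 and 680 CPM, −0.52 [−0.56, −0.47]), macrophages (−0.71) and erythroid cells (−1.10). In neutrophils 7 partners passed, with Ahnak alone past the limit (background 37.2% of genes), and in glia 8 passed, with none higher and 3 lower (background 26.4%).

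Of 4 receptors, Bsg (basigin, a receptor for S100a9) passed the filter in every class. It was at 573 and 451 CPM in mesenchyme (0.35 [0.30, 0.40]) and past the limit in epithelium (880 and 553 CPM, 0.67 [0.57, 0.77]) and erythroid cells (683 and 375 CPM, 0.86 [0.75, 0.98]). In macrophages Cd36, a scavenger receptor that binds fatty acids carried by calprotectin, was at 109 and 420 CPM (−1.95 [−2.57, −1.38]), and in erythroid cells it was higher, at 44.8 and 24.96 CPM (0.84 [0.39, 1.30]). Tlr4 stood in macrophages at 18.7 and 58.4 CPM, from 5 and 26 UMIs (−1.64 [−3.38, −0.24]). Ager had 45 and 46 UMIs over all cells and passed nowhere.

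S100a1, S100a13 and S100a16, neighbours at one end of the chromosome 3 cluster, had different profiles. S100a1 was led by muscle in Lipo-Clo (277 CPM [178, 413], 24 UMIs), with epithelium next at 181 CPM, and by macrophages in Lipo-PBS (184 CPM [146, 229]), with glia at 136 and epithelium at 131 CPM, and the intervals of neighbours in both orders overlapped. It was past the limit in muscle (277 and 103 CPM, 1.43 [0.49, 2.40]) and neutrophils (86.6 and 54.1 CPM, 0.68 [0.12, 1.29]), higher in both, and in macrophages (120 and 184 CPM, −0.62 [−1.26, −0.01]), where it was lower. In the subclusters named neutrophil it stood at 36.0 and 53.4 CPM (−0.57, no counting interval given). Granulocyte progenitors had its highest CPM among leukocytes clustered by themselves, at 211 and 188 CPM with a UMI in 82.7% and 66.7% of cells. In Lipo-PBS their interval [105, 311], from 15 UMIs in 9 cells, overlapped that of macrophages (179 CPM [139, 227]). Mesenchyme carried S100a1 at 112 and 84.1 CPM (0.41 [0.30, 0.53]). Above that level were the pulp or papilla cells led by Ctnnd2 (657 and 456 CPM, 0.53 [0.25, 0.81]) and by Lrrc4c (215 and 151 CPM, 0.51 [0.22, 0.81]).

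S100a13 had the narrowest range of ratios among the members that passed in 12 classes. It lay above 0 in 10, was past the limit in none, and ranged from −0.18 in erythroid cells (102 and 116 CPM; 0.020 with DESeq2 scaling) to 0.45 in perivascular cells (211 and 154 CPM). Endothelium was the highest of the 12 named classes, at 430 CPM [380, 484] in Lipo-Clo, apart from the next class, and at 351 CPM [314, 391] in Lipo-PBS, where the interval overlapped that of dendritic cells. T or NK cells of the leukocytes clustered by themselves stood above it, at 589 CPM [478, 719] in Lipo-Clo and 450 [353, 566] in Lipo-PBS. Inside mesenchyme the same pulp or papilla subclusters that were rich in S100a1 showed the widest gaps for S100a13, at 201 and 108 CPM (0.90 [0.56, 1.25]) and 319 and 196 CPM (0.70 [0.28, 1.13]).

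S100a16 was a gene of endothelium (352 and 331 CPM), epithelium (333 and 314 CPM) and muscle (220 and 365 CPM), whose intervals overlapped in both libraries. In endothelium and epithelium it differed by less than the counting error (0.09 [−0.17, 0.34] and 0.09 [−0.06, 0.23]). It was past the limit in glia (215 and 142 CPM, 0.60 [0.09, 1.10]), in erythroid cells (35.5 and 54.5 CPM, −0.62 [−1.02, −0.23]) and in muscle (−0.73 [−1.55, 0.03], 19 and 64 UMIs), where the interval spans 0. In neutrophils, macrophages, dendritic cells, B cells and perivascular cells it did not pass the filter.

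S100b marked glia, the cells of the nerves around the tooth. Glia stood at 334 CPM [271, 407] in Lipo-Clo and 332 [285, 384] in Lipo-PBS, from 98 and 180 UMIs, with a UMI in 36.0% and 41.6% of cells (20.9% and 24.4% after thinning to 1000 UMIs). The log2 ratio was 0.01 [−0.36, 0.37], an interval wide enough to leave smaller differences undetectable at this depth. The 10 glial marker genes summed to 12493 and 23050 CPM in the same cells, and S100b did not follow them. The next class was far below, muscle at 23.1 CPM in Lipo-Clo (2 UMIs) and mesenchyme at 17.5 CPM in Lipo-PBS. Since mesenchyme is the largest class it still held 59.8% and 39.0% of the UMIs of S100b at 15.0 and 17.5 CPM, with the unnamed Mmp13- and Pcp4-led subcluster at 56.7 and 54.4 CPM and the Abi3bp-led periodontal ligament at 36.8 and 71.5 CPM. Neutrophils held a UMI in 0.533% and 0.917% of cells. Dendritic cells had 0 UMIs in 120 and 100 cells, which allows a share of cells with a UMI of up to 2.5% and 3% and sets no limit on cells that express the gene. Over all cells S100b was at 12.6 and 20.2 CPM (−0.68 [−0.88, −0.48]), with 161 and 243 glial cells in the libraries.

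**Figure D5:**
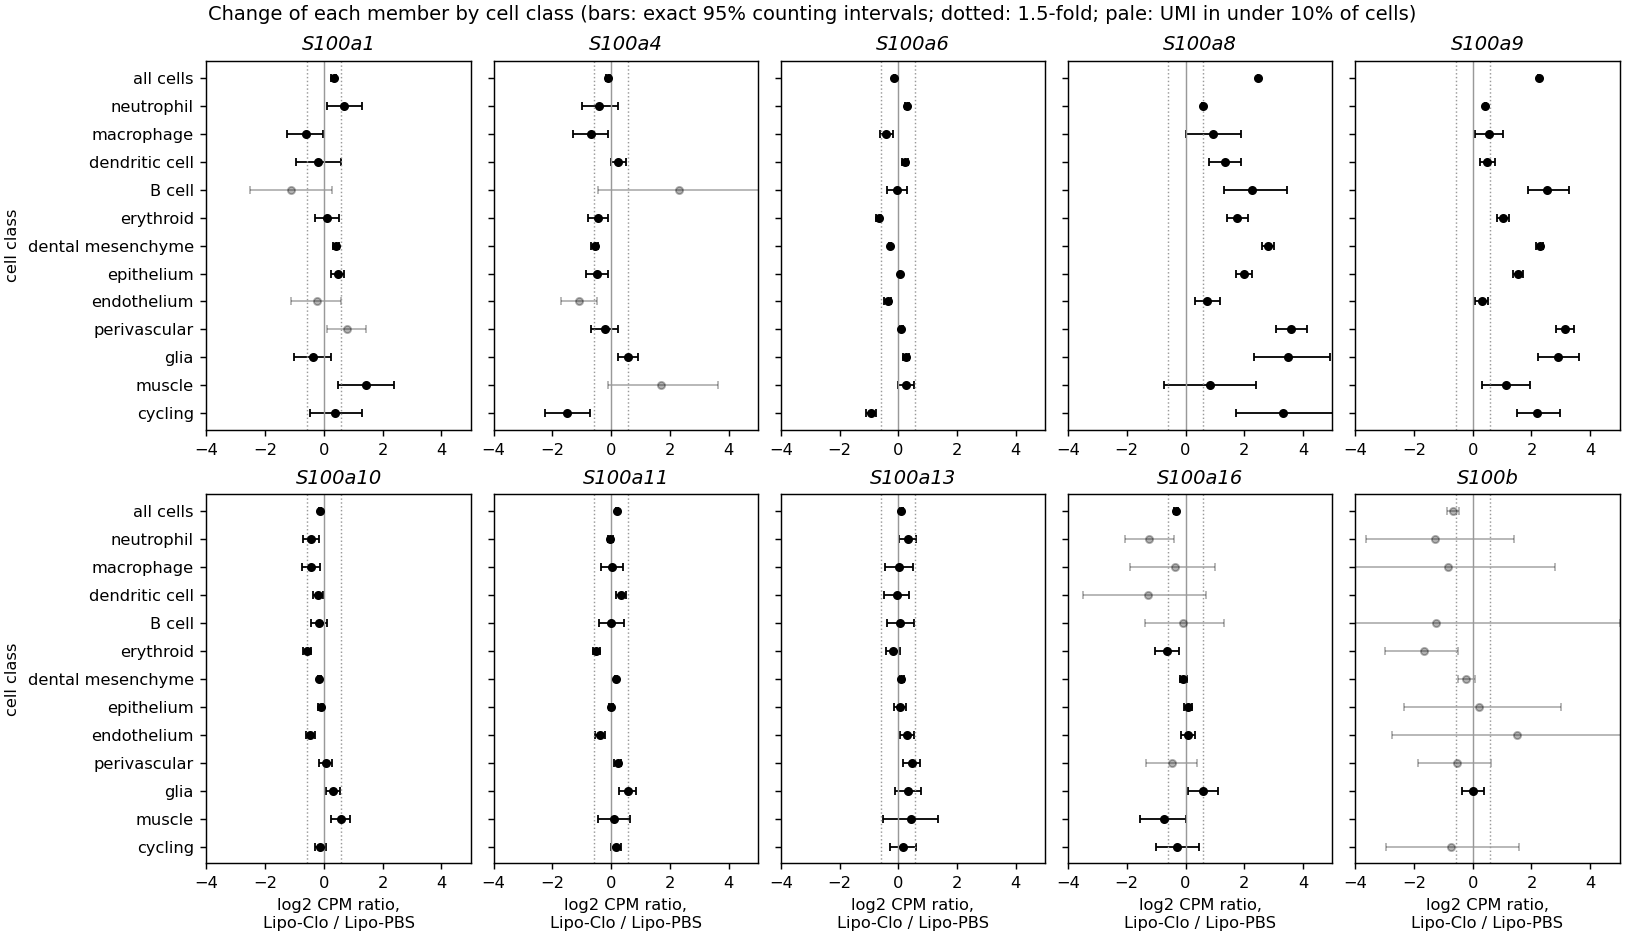
Log2 ratio of CPM, Lipo-Clo over Lipo-PBS, of each member in each cell class, with exact 95% counting intervals as bars (cut at the ends of the axis), dotted lines at 1.5-fold and pale points where a UMI was seen in under 10% of cells. S100a8 lies right of 0 in all 12 classes, S100a13 stays within the dotted lines in all 12, and S100b in glia lies at 0.01.

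Glia and muscle had the highest medians over the members. In glia all 10 members passed the filter, 9 were above 0, and S100a8, S100a9 and S100a16 were past the limit, a share of members near the background of 26.4%, with a median over members of 0.45 against −0.05 for all genes. In muscle 8 passed, 7 were above 0, and S100a1, S100a8 and S100a9 were higher and S100a16 lower past the limit, a share of members near the 42.9% of all genes in that class, with a median of 0.50 against −0.07. Muscle rests on 57 and 100 cells, and although 6 of 6 muscle markers were detected none was among the 10 leading genes of its cluster. In erythroid cells, by contrast, 6 of 9 members were below 0, S100a6 and S100a16 were lower and S100a8 and S100a9 higher past the limit, again near the background of 43.6%, and the median was −0.43 against −0.20. These signs were not stable, since with every deposited cell kept S100a6 and S100a16 in erythroid cells were at 0.72 and 0.68, and S100a1 in muscle at −0.73, and with TMM scaling the erythroid values were −0.48 and −0.44, within the limit. The erythroid class held mesenchymal markers at 24455 and 39996 CPM, and one of its clusters, with Col1a1 and Lum, held 205 Lipo-Clo and 531 Lipo-PBS cells. In cycling cells S100a8 and S100a9 were higher and S100a4 and S100a6 lower (background 33.4%), with a median of 0.15 against −0.07. In macrophages S100a8 was higher and S100a1 and S100a4 lower, a share of members near the background of 30.5%, with a median of −0.19 against −0.01. The medians in the other classes lay between 0.03 in B cells and 0.30 in neutrophils.

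Epithelium differed in its makeup between the libraries. The cluster led by Amelx, a gene of the enamel-forming ameloblasts, held 601 of its Lipo-Clo and 339 of its Lipo-PBS cells, and the Krt14-led cluster held 225 and 361. The ameloblast list summed to 43123 and 17594 CPM. Within the unnamed Krt15-led subcluster (150 and 216 cells) S100a6 was at 9029 and 8243 CPM and S100a11 at 2130 and 1698 CPM, and in ameloblasts led by Clstn2 (252 and 204 cells) at 8153 and 8093 CPM and 1139 and 1007 CPM. The few keratinocytes, 2 and 11 cells, held S100a9 at 3006 CPM in Lipo-PBS and 263 in Lipo-Clo.

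The 8 other S100 genes were scarcely detected. None passed the filter in any class but S100a14 in epithelium, where it stood at 202 and 260 CPM (−0.37 [−0.54, −0.19]). Over whole libraries S100a14 had 566 and 755 UMIs, S100a7a 14 and 30, S100a3 12 and 22, S100a5 2 and 10, S100a2 7 and 7 and S100g 2 and 0. S100a7l2 and S100z had 0 in both, which allows up to 0.112 and 0.116 CPM.

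As a description with no test, each member was compared with 13838 genes over the 24 class and library points (12 classes that share libraries and their depth). S100a8 and S100a9 were closest to each other (Pearson r of 0.995), and then to the neutrophil granule genes Camp (0.975 and 0.962) and, for S100a8, Ngp (0.973). S100b was closest to Atp6v0e2 (0.970), Gpm6b (0.963) and Adam23 (0.960). S100a11 was closest to its partner Anxa1 (0.884), S100a6 to Cd9 (0.795) with Anxa2 the third (0.764), S100a16 to Palmd (0.883), S100a13 to Gng5 (0.852), S100a4 to Nr4a2 (0.842), S100a10 to Mrpl52 (0.837) and S100a1 to Mt1 (0.827). High values for S100a8, S100a9 and S100b come with 1 class that stands apart.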

How the data were processed

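The authors deposited raw UMI counts per gene and cell for 2 libraries of 10x Genomics single-cell RNA. The submitters' processing notes name GRCm39 (mm39), Cell Ranger 3.1.0 and Seurat 3.1.1, whereas the file headers name Cell Ranger 8.0.0; which made the counts could not be settled. Depth (the UMIs per library and class) sets the intervals printed, which are exact Poisson (levels), exact 2-count (ratios) and Clopper-Pearson (shares) at 95%, with 3 counts as the limit of a 0. Barcodes under 200 genes or above 20% mitochondrial UMIs were dropped, which left 8886 and 8894. Scrublet called 0 and 1 doublets, so it had not worked, and the cells with the highest scores were removed instead, 632 and 633 (7.11% and 7.12%), at 0.8% per 1000 cells.

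Both libraries were clustered together in scanpy 1.11.5 (2000 variable genes without S100 genes, 30 components, 20 neighbours, Leiden resolution 1 with leidenalg 0.10.2, Python 3.11.15). A cluster took a name from 3 or more markers, and mixed clusters stayed unnamed, a rule settled after the data had been seen. Subclusters used resolution 0.6 in mesenchyme and 0.5 in epithelium and neutrophils. UMIs were summed per class and library. With 1 library per condition no test was run; edgeR 4.0.16 and DESeq2 1.42.0 (R 4.3.3) gave scaling factors only, as alternatives. The named genes are the members, fixed lists of other S100 genes, partners and receptors with values where they passed the filter or had UMIs over all cells, and the 3 genes closest in profile (10 CPM pseudocount, at least 100 UMIs, classes of 50 cells per library). Members and lists were chosen with earlier results of these data known. Promoters came from RefSeq (GRCm38.p6), another build than the counts, and were matched by symbol. The scripts were tested on simulated data.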

Additional observations from a re-analysis of the deposited data

Results flagged for a closer look

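These results went one way in some classes and the opposite way in another, with an interval clear of 0 on each side; the difference between classes was not tested, since each condition has 1 library. S100a1 had a log2 ratio of 0.68 in neutrophils and 1.43 in muscle, but −0.62 in macrophages. S100a16 had a log2 ratio of 0.60 in glia and −0.62 in erythroid cells. The neutrophil value of S100a1 is −0.57 in the subclusters named neutrophil alone (36.0 and 53.4 CPM, no counting interval given). These subclusters hold only a part of the 195 and 30 UMIs of the class, so counting error may span 0 there. In neutrophils of the leukocytes clustered by themselves it is 0.26 [−0.35, 0.92], an interval that spans 0 (120 and 27 UMIs). The muscle class holds 57 and 100 cells, and the erythroid class holds mesenchymal markers at 24455 (Lipo-Clo) and 39996 CPM (Lipo-PBS).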

How the results depend on the processing

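No paired analysis was possible because 1 library stands for each condition. Of 1591 values recomputed under alternatives, 1239 counted as unmoved, 346 as moved, and 6 called values changed sign. A ratio or share was unmoved if it stayed inside its counting interval, and a count of members past the limit if it stayed within 1.5 times. The alternative of an equal doublet share in both libraries removed the same cells as the main setting. Its 124 values could not move, and they are among the 1239. S100a8 over all cells (2.47) was 2.55 with TMM, 2.56 with DESeq2 factors, 2.43 with mitochondrial, haemoglobin and ribosomal protein genes out of the totals, 1.98 as a mean over cells, 2.12 after thinning, 2.45 with doublets kept, 2.44 with the stricter cell filter and 2.49 with every cell. S100a8 in neutrophils (0.59) was 0.76, 0.77, 0.51 and 0.64 under the first 4 of these, 0.50 at resolution 2, 0.62 with doublets kept, 0.71 with the stricter filter and 1.26 with each library clustered by itself. Another 3 alternatives, chosen after seeing the data, gave 0.46 (same mixture of neutrophil subclusters), 0.26 (named neutrophils only) and 0.64 (leukocytes clustered by themselves). TMM and DESeq2 factors shift all ratios in neutrophils by 0.17 and 0.18 and in erythroid cells by 0.19 and 0.20. S100a4 in mesenchyme (−0.56) was −0.45 with S100 genes allowed in the clustering and −0.21 at the same mixture. S100a6 in mesenchyme (−0.28) was −0.24 with TMM, −0.24 with DESeq2 factors, −0.34 as a mean over cells, −0.31 with doublets kept, −0.23 with every cell, −0.38 with each library clustered by itself, −0.23 with S100 genes allowed and 0.15 at the same mixture, where the libraries' different shares of subclusters are evened out. The count past the limit in mesenchyme went from 2 to 4 at a log2 limit of 0.36; of the 13 such counts, 8 moved past 1.5 times at that limit, 5 at a fold limit of 2 and 1 with genes of 20 or more UMIs. The neutrophils' share of S100a8 UMIs in Lipo-Clo (93.9%) was 93.6% at resolution 2, 92.7% with doublets kept, 92.9% with the stricter filter, 93.4% with every cell and 94.4% with S100 genes allowed; in Lipo-PBS (88.2%) it was 86.3%, 87.2% with the stricter filter, 87.3% with every cell and 94.4% with each library clustered by itself. Signs changed for S100a1 in neutrophils (−0.57, named neutrophils only, no counting interval given) and muscle (−0.73, every cell). They also changed for S100a6 in erythroid cells (0.0088 at resolution 0.5 and 0.72 with every cell). The others were S100a16 in erythroid cells (0.68, every cell) and S100a9 in muscle (−0.042 as a mean over cells). The cause was not tested. S100b in glia moved under none of its alternatives.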
